A study of Arabidopsis thaliana with 15 samples.

Results

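The 38 genes described here encode proteins of the cytoplasmic ribosome, of its large (60S) and its small (40S) subunit, and were chosen by locus identifier from 27444 nuclear protein-coding genes of Arabidopsis thaliana. Binding near them was mapped by ChIP-seq, the sequencing of DNA that comes down with a protein, here with the anti-GFP antibody ab290. Inflorescence meristems were dissected from plants grown in 16 h of light and 8 h of dark. All lines were in Col0 and carried GFP-MYB3R1 under pMYB3R1 (3 ChIP libraries), GFP-MYB3R4mNES under pMYB3R4 (2 libraries) or GFP-MYB3R4 under pMYB3R4 (3 libraries). The labels do not spell out the suffix mNES, nor whether the plants kept their own MYB3R genes, nor whether replicates came from separate plants. The data are lists of peaks called by the authors relative to input. A gene was called bound in a library when a peak summit lay from 1000 bp outside to 200 bp inside either end of the gene.

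MYB3R1 and MYB3R4 belong to the plant MYB proteins with triple MYB repeats, which bind promoters of genes used in the G2 and M phases of the cell cycle. MYB3R4 is known as an activator of such genes, while MYB3R1 acts as an activator and as a repressor. Ribosomal proteins assemble with ribosomal RNA in the nucleolus, dividing cells make them in bulk, and in plants small families of paralogs encode them. Loss of single members gives pointed or narrow leaves or embryo death in Arabidopsis.

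The reference table names the ribosomal protein for 21 of the 38 loci, 11 of the large and 10 of the small subunit. It gives 2 others a mutant symbol, EMB2296 and PGY2 (PIGGYBACK2), and 15 a locus identifier alone, by which they are called here. The lists differ in length. The MYB3R1 lists held 11478, 19655 and 7089 nuclear peaks in replicates 1, 2 and 3, the MYB3R4mNES lists 227 and 256, and the MYB3R4 lists 786, 2717 and 456. Read depth is unknown, so a gene without a peak had no call in that library and was not shown to be free of binding. Peak names inside the list of MYB3R4mNES replicate 1 carry the name stem of MYB3R4 replicate 3, although the 2 lists share 0 intervals. As a check of the immunoprecipitations, TPX2 (AT1G03780), a spindle gene, and SYP111 (AT1G08560), the cytokinesis syntaxin, were bound in all 8 libraries.

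MYB3R1 had a peak near 18 to 36 of the 38 ribosomal protein genes, a larger share than among all genes in each of its 3 libraries. MYB3R4mNES had 0 and MYB3R4 0 to 2, in lists that held few genes of any kind, so these low counts are near the background. In MYB3R1 replicates 1, 2 and 3, 29, 36 and 18 of the 38 genes were bound, where 43.6%, 65.9% and 29.5% of all nuclear coding genes were bound. In MYB3R4mNES replicates 1 and 2, 0 of 38 were bound, where 0.612% and 0.747% of all genes were. In MYB3R4 replicates 1, 2 and 3, 0, 2 and 0 were bound, where 1.29%, 9.12% and 1.30% of all genes were. The mean share of ribosomal protein genes bound was thus 72.8% ± 23.9 in MYB3R1 (SD, n = 3), 0% in both MYB3R4mNES libraries and 1.75% ± 3.04 in MYB3R4 libraries (SD, n = 3). The corresponding shares of all genes were 46.3% ± 18.3 (SD, n = 3), 0.680% ± 0.0953 (SD, n = 2) and 3.90% ± 4.52 (SD, n = 3). Every MYB3R1 library exceeded every library of the other groups, for the ribosomal protein genes as for all genes. The MYB3R1 lists were also the longest of the 8, and the part of list length in this difference is described further on with lists of equal length. No ChIP from untagged plants was analysed here, so binding by MYB3R1 and background of the GFP antibody cannot be told apart in these counts.

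**Figure D1:**
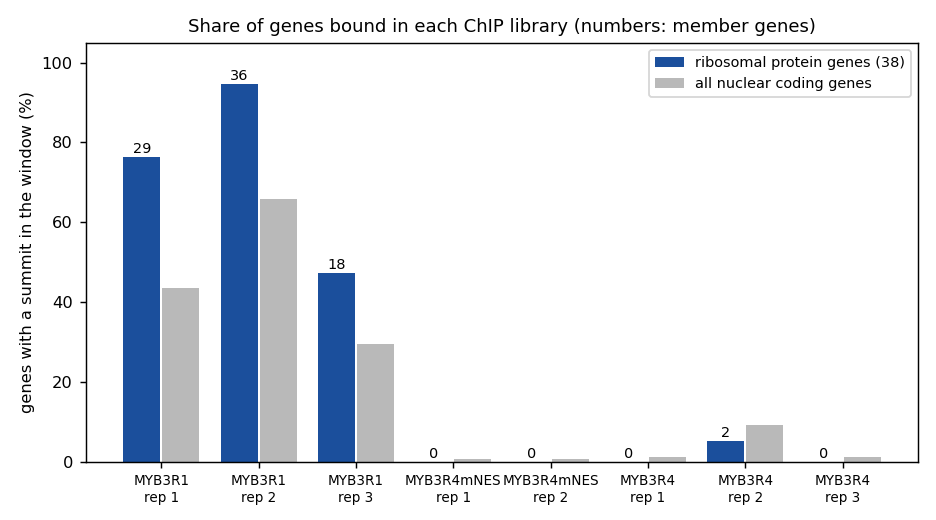
Percent of genes with a peak summit in the window, for the 38 ribosomal protein genes (blue, number of genes above the bar) and all nuclear coding genes (grey), in each of the 8 ChIP libraries. The blue bar stands above the grey one in the 3 MYB3R1 libraries (29, 36 and 18 genes), and is at 0 in all MYB3R4mNES and MYB3R4 libraries but MYB3R4 replicate 2 (2 genes).

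In the 3 MYB3R1 lists the ribosomal protein genes were nested. Replicate 2 held every member bound in replicate 1, and replicate 1 held every member bound in replicate 3. Thus 18 members were bound in all 3 libraries, 11 in replicates 1 and 2, 7 in replicate 2 alone and 2 in none. Of all genes, 26.9%, 15.5%, 21.4% and 32.7% showed these 4 patterns, and the remaining ones were rare. In at least 2 MYB3R1 libraries 29 members were bound, or 76.3%, where 44.8% of all genes were. In at least 1 MYB3R1 library 36 members were bound, where 67.3% of all genes were. For MYB3R4mNES 0 members were bound in both libraries, where 0.434% of all genes were. For MYB3R4 0 members were bound in at least 2 libraries and 0 in all 3, where 1.40% and 0.663% of all genes were, and 2 in at least 1, where 9.64% were. Returning to MYB3R1, without replicate 1 or without replicate 2, 18 members were bound in both remaining libraries (28.9% and 27.2% of all genes), and without replicate 3, 29 were (42.4% of all genes). With peaks of a -log10 q-value of at least 5, 27 members were bound in at least 2 MYB3R1 libraries, where 40.6% of all genes were, and with at least 10, 15 members were, where 25.1% of all genes were. By subunit, 9 of the 11 named 60S genes and 6 of the 10 named 40S genes were bound in at least 2 MYB3R1 libraries, and so were 14 of the 17 genes whose protein the table does not name.

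In MYB3R1 replicate 1 the strongest peak among the 38 genes lay at AT5G02870. This gene had fold enrichments of 5.37, 5.14 and 2.79 in MYB3R1 replicates 1, 2 and 3. Fold enrichment is the authors' ratio of ChIP signal over input at the summit. Since it depends on each library, it is compared only within a list. In replicate 1 this peak spanned chr5:657305-658095 (TAIR10). It ranked 889th of the 11478 nuclear peaks of that list by fold enrichment, and stood at percentile 89.9 of all genes bound in that library. TPX2, for comparison, had 26.1, 12.6 and 15.2 in the same libraries.

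Members bound in all 3 MYB3R1 libraries were ranked by the median of their 3 fold enrichments, a rank that mixes lists and is not the order in each. After AT5G02870 came RPL23AB, AT1G70600, AT3G53430 and RPS15A. RPL23AB (AT3G55280) encodes a protein at the exit of the nascent peptide tunnel of the large subunit, and its peak reached 4.64, 4.77 and 2.29. AT1G70600 had 4.29, 4.36 and 2.29, and AT3G53430 had 4.27, 4.53 and 2.56. All 3 of these AT3G53430 summits lay nearer to the neighbour AT3G53440, 34, 42 and 50 bp from it. With each summit given only to the nearest gene end, AT3G53430 was bound in 1 MYB3R1 library. RPS15A (AT1G07770), a small subunit gene, had 4.15, 5.19 and 2.38, the highest member of replicate 2. In replicate 3 the highest member was RPL24B (STV1, AT3G53020), known for its part in the reinitiation of translation and in gynoecium form, with 3.91, 4.53 and 3.14. All 6 genes stood at percentile 71.0 or above in replicates 1 and 2. In replicate 3, AT5G02870 and RPL24B stood at percentiles 76.2 and 84.2, and the other 4 between 49.8 and 66.6.

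**Figure D2:**
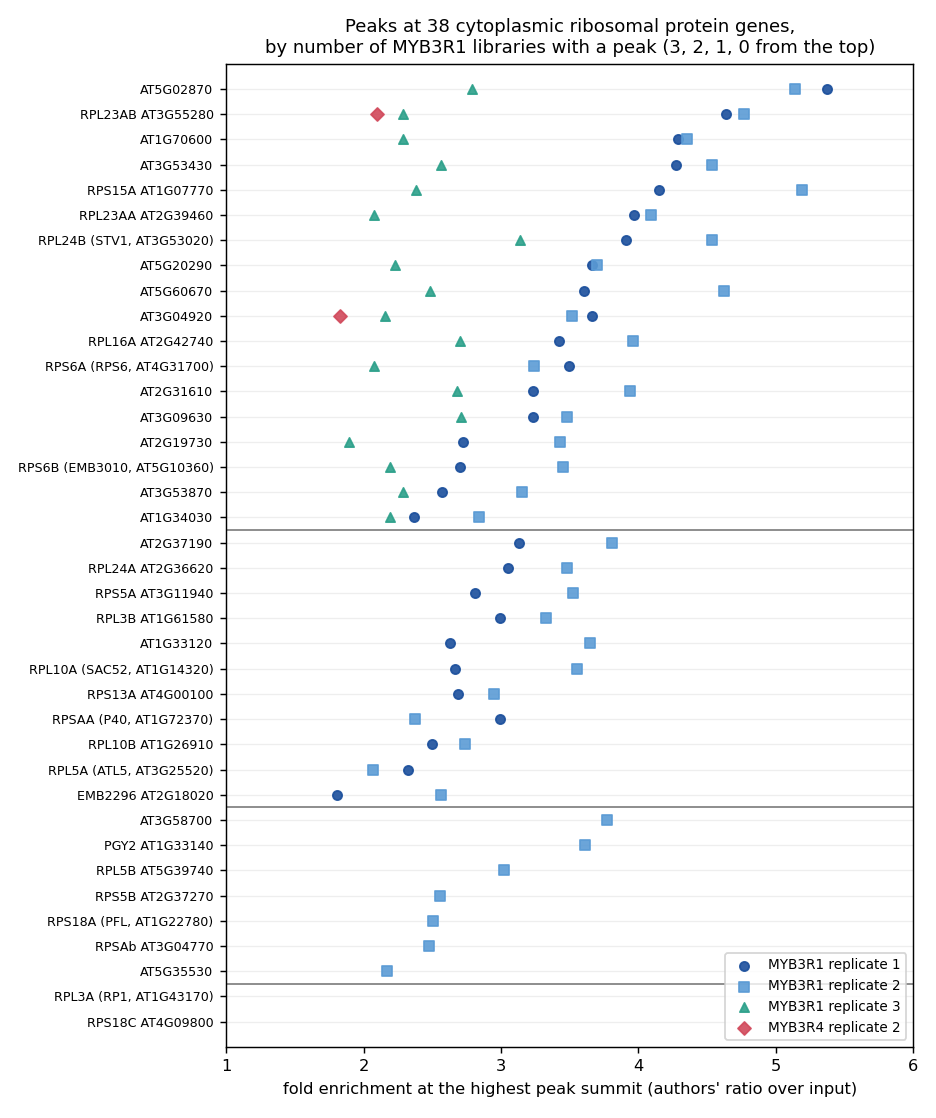
Fold enrichment at the highest peak of each of the 38 genes (x axis, authors' ratio over input) in MYB3R1 replicates 1, 2 and 3 and MYB3R4 replicate 2, with genes ordered by the number of MYB3R1 libraries with a peak and then by median fold. Of the 38 rows, 18 have 3 MYB3R1 points, 11 have 2, 7 have 1 and 2 have none, and only RPL23AB and AT3G04920 have a MYB3R4 point.

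The 5 lowest by the same median included AT1G34030, with 2.36, 2.84 and 2.20, and AT3G53870, with 2.57, 3.15 and 2.29. RPS6B (EMB3010, AT5G10360), a paralog of the small subunit protein that S6 kinase phosphorylates downstream of TOR, had 2.70, 3.45 and 2.20. AT2G19730 had 2.72, 3.43 and 1.89, and AT3G09630 had 3.24, 3.48 and 2.71. AT3G09630 shared its median with AT2G31610, which had 3.24, 3.94 and 2.68, and stood at percentile 72.5 in replicate 3, so it was not low in that list. Across the members bound, fold enrichments ran between 1.81 and 5.37 in replicate 1, 2.07 and 5.19 in replicate 2, and 1.89 and 3.14 in replicate 3. Lowest of all was EMB2296 (AT2G18020) with 1.81 in replicate 1, at percentile 0.305 of bound genes. It had 2.56 in replicate 2.

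Ribosomal protein genes as a group had peaks of middling strength. In MYB3R1 replicates 1, 2 and 3 the median over members was 3.13, 3.50 and 2.29-fold, where the median over all bound genes was 3.19, 3.09 and 2.29. Median percentiles of the members among all bound genes were 47.6, 62.4 and 49.8. No member exceeded percentile 90.0 of a list. The members kept much of their order between replicates 1 and 2 (Pearson's r = 0.851, Spearman's rho = 0.830, across 29 genes) and less between replicates 1 and 3 (r = 0.349, rho = 0.282, across 18 genes) or 2 and 3 (r = 0.472, rho = 0.545, across 18 genes). Over all genes bound in both lists, r was 0.888, 0.895 and 0.828 for the same pairs, and rho was 0.832, 0.697 and 0.738. These are correlations across genes, which share a library and are not independent replicates. Among the members the range of fold is narrower than among all genes, whose maximum was 26.1 in replicate 1.

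In short lists the counts of ribosomal protein genes were too low to set apart from those of all genes. With the 227 strongest nuclear peaks of each library by the authors' -log10 p-value, the length of the shortest list, 0 of 38 genes were bound in every library. All genes were then bound at 1.16%, 1.18% and 1.19% in MYB3R1 replicates 1, 2 and 3, at 0.612% and 0.663% in the MYB3R4mNES replicates, and at 0.721%, 0.882% and 0.711% in the MYB3R4 replicates. With the 500 strongest, 0 members were bound in the 5 libraries that hold so many. All genes were then bound at 2.49%, 2.55% and 2.61% in MYB3R1 replicates 1, 2 and 3, and at 1.14% and 1.83% in MYB3R4 replicates 1 and 2. With the 1000 strongest, 1, 0 and 1 member were bound in MYB3R1 replicates 1, 2 and 3, and 0 in MYB3R4 replicate 2, where 4.87%, 5.01%, 5.08% and 3.58% of all genes were. With 2717 peaks, the whole list of MYB3R4 replicate 2, the MYB3R1 replicates bound 6, 6 and 7 members (15.8%, 15.8% and 18.4%) where 12.5%, 12.9% and 13.0% of all genes were bound. MYB3R4 replicate 2 bound 2 (5.26%), where 9.12% of all genes were. At this length the counts, of 2 to 7 members, were too low to set any of these shares apart from its background, for MYB3R1 and MYB3R4 alike.

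With 5000 peaks, MYB3R1 replicates 1, 2 and 3 bound 14, 13 and 17 members, where 21.9%, 22.6% and 22.2% of all genes were bound. With 7089 peaks, the whole list of MYB3R1 replicate 3, MYB3R1 replicates 1, 2 and 3 bound 20, 25 and 18 members (52.6%, 65.8% and 47.4%). All genes were then bound at 29.8%, 30.9% and 29.5%. At equal length the 3 MYB3R1 libraries thus lay closer together than with their full lists, and the members stood above all genes in each. At 7089 peaks, 21 members were bound in at least 2 of the 3 MYB3R1 libraries, where 29.8% of all genes were. With 10000 peaks, replicates 1 and 2 bound 27 and 28 members, where 39.5% and 41.4% of all genes were bound, and with 15000 replicate 2 bound 35, where 56.1% were. The styles of file name, which may mark a library batch, cut across the groups. In one style, 29 and 36 members were bound in MYB3R1 replicates 1 and 2, against 0 and 2 in MYB3R4 replicates 1 and 2. In the other style MYB3R1 replicate 3 bound 18, and both MYB3R4mNES libraries and MYB3R4 replicate 3 bound 0.

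**Figure D3:**
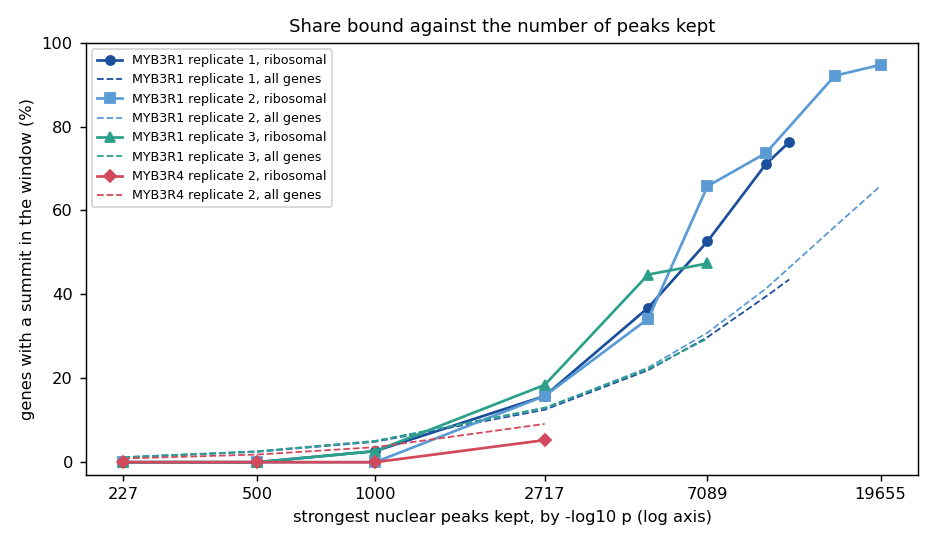
Percent of genes bound (y axis) against the number of strongest nuclear peaks kept (x axis, log scale), for the 38 ribosomal protein genes (solid lines with markers) and all nuclear coding genes (dashed lines) in the 3 MYB3R1 libraries and MYB3R4 replicate 2. No ribosomal protein gene is bound with 227 or 500 peaks, and from 5000 peaks on the solid MYB3R1 lines lie above the dashed ones.

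Paralogs could be compared in 9 families of which the table names 2 listed members. The 17 members whose protein the table does not name were left out. Some of them may be paralogs of each other or of named members, so the counts below cover the named genes only. In 4 of the 9 families both genes were bound in at least 2 MYB3R1 libraries (2 families without replicate 1 or without replicate 2). In 4 only 1 of the 2 named genes was, and in RPS18 neither of the 2. Of all genes, taken singly, 44.8% were bound in at least 2 MYB3R1 libraries. No such count was made over other gene pairs, so these counts of families have no background of their own. The number of MYB3R1 libraries was equal in 3 families and differed in 6. Counts of libraries move with list length, and the cause of a difference between paralogs was not tested.

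RPL23AB and RPL23AA (AT2G39460) were both bound in all 3 MYB3R1 libraries. RPL23AB had the higher fold in each list, 4.64 against 3.97, 4.77 against 4.09 and 2.29 against 2.08. The highest RPL23AA summit lay nearer to the neighbouring gene MTP11 than to RPL23AA in all 3 lists, 143, 76 and 134 bp from it. RPS6A (RPS6, AT4G31700) and RPS6B were likewise bound in all 3, without a fixed order. RPS6A had 3.49, 3.24 and 2.07, and RPS6B had 2.70, 3.45 and 2.20, so that RPS6A was higher in 1 list of 3. In replicates 1 and 2 these RPS6B summits lay 571 and 478 bp outside the gene, and 22 and 115 bp from its neighbour AT5G10350. A second RPS6B peak of replicate 2, 5 bp outside the other end, had 2.56, below RPS6A, so the order in that list depends on the peak taken. RPL10A (SAC52, AT1G14320), known from a suppressor of the polyamine mutant acaulis, and RPL10B (AT1G26910) were bound in replicates 1 and 2. RPL10A had 2.67 and 3.55, and RPL10B 2.50 and 2.74. RPL24B was bound in all 3 libraries and RPL24A (AT2G36620) in replicates 1 and 2, with 3.05 and 3.48. RPL24B was the higher in both lists that held both, and its summits lay 53, 36 and 14 bp from the end of the neighbour SRPK4, a kinase gene.

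In 5 other families the paralogs differed in the MYB3R1 libraries that bound them. RPL5A (ATL5, OLIGOCELLULA 5, AT3G25520) and RPL5B (OLIGOCELLULA 7, AT5G39740) encode the protein that carries 5S ribosomal RNA into the large subunit. RPL5A had 2.32 and 2.07 in replicates 1 and 2, and RPL5B had 3.02 in replicate 2 alone. The gene bound in more libraries was thus the lower one in the list that held both. The RPL5A peak of replicate 1 had a -log10 q of 4.65. With a -log10 q of at least 5, RPL5A and RPL5B were each bound in 1 MYB3R1 library. RPS5A (AT3G11940), whose promoter is widely used to drive transgenes in dividing cells, had 2.81 and 3.52 in replicates 1 and 2, and RPS5B (AT2G37270) had 2.55 in replicate 2 alone. RPSAA (P40, AT1G72370) had 2.99 and 2.37, and RPSAb (AT3G04770) had 2.47 in replicate 2 alone. RPS18A (PFL, POINTED FIRST LEAVES, AT1G22780) was bound in replicate 2 alone, with 2.51, and its summit lay 32 bp from the end of the neighbour GI, the clock gene GIGANTEA. RPS18C (AT4G09800) was bound in none of the 8 libraries.

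**Figure D4:**
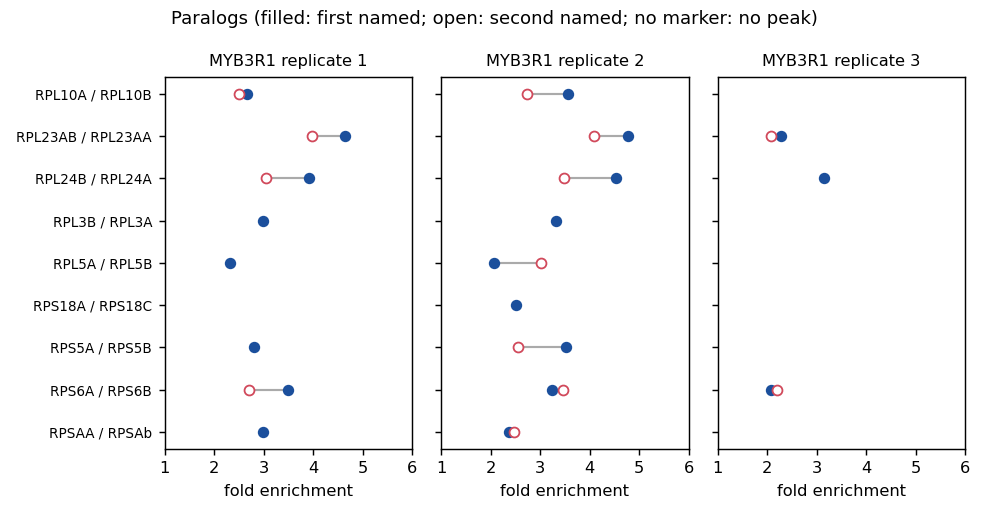
Fold enrichment (x axis) of the highest peak of each paralog in 9 ribosomal protein families (rows), with a panel for each MYB3R1 replicate. Filled points are the first named paralog, open points the second, and a missing point means no peak. RPL23AB exceeds RPL23AA in all 3 panels, and in 6 of the 9 families the paralogs have points in different numbers of panels.

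RPL3B (AT1G61580) and RPL3A (RP1, AT1G43170) show how the window shapes a call. They encode a large subunit protein that reaches towards the catalytic centre of the ribosome. RPL3B had 2.99 and 3.33 in MYB3R1 replicates 1 and 2. These summits lay 987 and 945 bp outside the gene, and 38 and 80 bp from TIM13, a neighbour that encodes a mitochondrial import protein. A second, lower peak of RPL3B lay 12 and 3 bp inside its other end, with 2.32 and 3.25. RPL3A was bound in none of the 8 libraries by the window used. Its body nevertheless held a summit in MYB3R1 replicates 1 and 2, 234 and 203 bp inside the nearer end, just past the limit of 200 bp, with 2.69 and 2.74. With any part of the peak counted, RPL3A was bound in 2 MYB3R1 libraries. Apart from that peak, no summit lay within a stretch of 330, 277 and 330 kb around RPL3A in MYB3R1 replicates 1, 2 and 3, although that stretch held 33, 23 and 33 coding genes.

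RPS18C also lay in a stretch without peaks. Its nearest summit was 37572, 27117 and 49043 bp away in MYB3R1 replicates 1, 2 and 3. Flanking summits were 81.9, 71.5 and 124 kb apart, with 19, 16 and 27 coding genes between them. RPS18C stood at 0 MYB3R1 libraries under every setting of the window, threshold and list length that was tried.

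Genes bound in replicate 2 alone included 2 of the higher peaks of that list's members. AT3G58700 had 3.77 and PGY2 (AT1G33140), known from leaf patterning mutants, had 3.61, at percentiles 69.4 and 65.7 of bound genes. AT1G33120 had 2.63 and 3.65 in replicates 1 and 2. AT5G35530 had 2.17 in replicate 2 alone. The remaining members bound in replicates 1 and 2 were AT2G37190, with 3.13 and 3.81, and RPS13A (AT4G00100, POINTED FIRST LEAF 2), with 2.69 and 2.95.

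MYB3R1 summits at the bound members lay close to gene ends. Their median distance from the nearer end was 78.0, 75.5 and 101 bp in replicates 1, 2 and 3, where that of all bound genes was 137, 124 and 141 bp. Within 250 bp of an end lay 26 of 29, 33 of 36 and 17 of 18 member summits (89.7%, 91.7% and 94.4%), where 66.5%, 67.8% and 65.9% of all bound genes had such a summit. Of the 83 highest summits, 55 lay outside the gene and 28 inside. The window reaches 1000 bp outwards but 200 bp inwards, so it favours outside summits by construction. No such split was made over all genes. The reference table gives no strand, so which end is the transcription start was not determined here.

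The site was repeated between replicates for most members. Of the 29 genes bound in at least 2 MYB3R1 libraries, 24 had their highest summit at the same gene end in each, within a span of 3 to 212 bp (median 71.5 bp). At AT3G04920 the 3 summits fell at positions 1362821, 1362821 and 1362818 of chromosome 3, 372, 372 and 369 bp outside the gene. They lay nearer to the neighbour AT3G04930, 324, 324 and 321 bp from it. The other 5, RPL16A, AT3G09630, RPS6B, RPL10A and RPL5A, had their highest summit at different ends in different libraries. RPL16A (AT2G42740) had a peak at each end in all 3 libraries, of 3.42 and 3.05 in replicate 1, 3.53 and 3.96 in replicate 2, and 2.64 and 2.70 in replicate 3. Its highest summits lay nearer to a neighbour, AT2G42730 in replicate 1 (32 bp) and AT2G42750 in replicates 2 and 3 (50 and 54 bp). RPL10A also had a peak at each end in replicates 1 and 2.

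**Figure D5:**
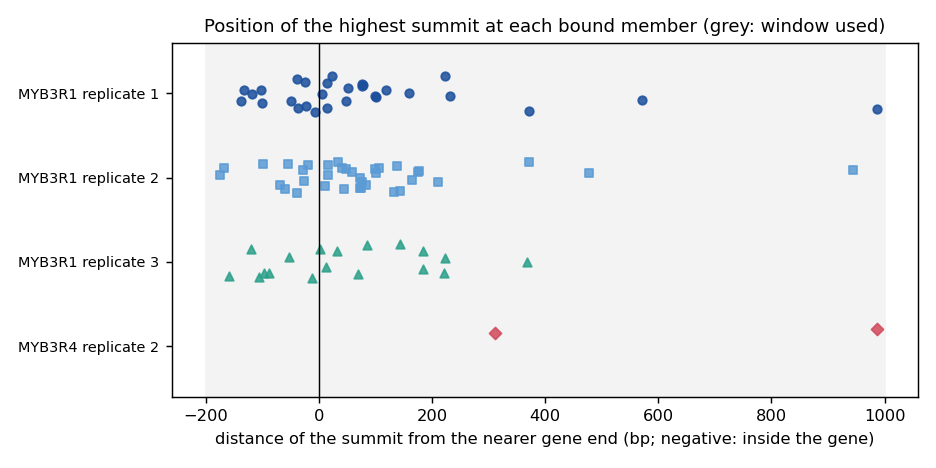
Distance in bp of the highest summit at each bound ribosomal protein gene from the nearer gene end (x axis, negative inside the gene), in the 3 MYB3R1 libraries and MYB3R4 replicate 2, with points spread vertically for visibility. Within 250 bp of an end lie 26 of 29, 33 of 36 and 17 of 18 MYB3R1 summits, while both MYB3R4 summits lie farther out, at 312 and 986 bp.

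Some of these summits lay nearer to a neighbour than to the member. In 29 of the 83 cases the nearest gene end belonged to another gene, and this held for at least 1 library at 14 members and for all its libraries at 8. That share was not counted over all bound genes, so it cannot be called particular to the members. With each summit given only to the gene with the nearest end, 20 members were bound in at least 2 MYB3R1 libraries, where 31.0% of all genes were. RPL23AA, RPL24B, RPS13A and RPS18A then had 0 libraries, and 7 other members had fewer than before. At AT2G19730 the neighbour was itself a ribosomal protein gene, rps15ab (AT2G19720), 40 and 15 bp from the summits of replicates 1 and 2. AT3G09630 had its summit 198 and 187 bp from APX2 in replicates 2 and 3.

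MYB3R4 was called at RPL23AB and AT3G04920, each in replicate 2 only. In MYB3R1 replicates 1, 2 and 3, AT3G04920 had fold enrichments of 3.66, 3.52 and 2.15. At RPL23AB its peak spanned chr3:20501796-20502351 with a fold enrichment of 2.10, at percentile 53.9 of genes bound in that library. Its summit was 312 bp outside the gene, at the same end as the MYB3R1 summits, which lay 119, 106 and 144 bp out. At AT3G04920 the MYB3R4 peak had 1.83, at percentile 15.1, with its summit at position 1359851 of chromosome 3, 986 bp outside the gene. The highest MYB3R1 summits of this gene lay at its other end, but replicates 1 and 2 had further summits at positions 1359897 and 1359885. With a window of 500 bp, AT3G04920 was no longer bound in MYB3R4 replicate 2.

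Other genes of ribosome supply were also bound by MYB3R1. Among genes of ribosome assembly, 8 of 8 were bound in all 3 MYB3R1 libraries, where 26.9% of all genes were. NUC-L1 (AT1G48920), the major nucleolin, had 7.91, 6.88 and 3.52 in replicates 1, 2 and 3, above every one of the 38 members. FIB1 (AT5G52470), a fibrillarin, had 3.24, 3.31 and 1.90. Of 8 genes of translation factors and ribosome signalling, 8 were bound in at least 2 MYB3R1 libraries and 7 in all 3, where 44.8% and 26.9% of all genes were. TOR (AT1G50030), the kinase that ties ribosome supply to nutrients, had 4.85, 4.85 and 2.38 in MYB3R1, and 2.15 in the second MYB3R4 library. Its substrate S6K2 (AT3G08720) had 4.40, 4.76 and 2.15 in MYB3R1, and 2.18 in that MYB3R4 library. PK1 (AT3G08730), listed also as S6K1, shared the first 2 values. The identifiers of these 2 loci are consecutive, so the same peak may have been counted for both. In the second MYB3R4 library 4 of the 8 genes were bound, where 9.12% of all genes were. In the other MYB3R4 and MYB3R4mNES libraries none of the 8 was, where 0.612% to 1.30% of all genes were.

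Named paralogs outside the 38 loci were bound in all 3 MYB3R1 libraries in 4 of 4 cases, RPL10C (SAG24, AT1G66580), RPL16B (AT4G18730), RPL27AB (AT1G23290) and RPS15AD (AT3G46040), where 26.9% of all genes were. RPL10C had 3.36, 3.18 and 2.29, and was thus bound in replicate 3, which RPL10A and RPL10B were not. RPS15AD had 5.43, 4.59 and 2.87. Ribosomal proteins of plastids and mitochondria gave a further list, of 19 nuclear genes, chosen after the members' values were seen. Of the 38 cytoplasmic genes 29 were bound in at least 2 MYB3R1 libraries and 18 in all 3, against 12 (63.2%) and 5 of the 19 organelle genes. Of all genes 44.8% and 26.9% were, and the 5 organelle genes in all 3 libraries are near that background. The difference between these lists was not tested. RPL3P (AT3G17465), the plastid counterpart of RPL3, had 4.52, 5.21 and 2.85.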

How the data were processed

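Peak lists of 8 ChIP libraries were used, in narrowPeak format. Per the file names, the authors called peaks against input, extending reads to 400 bp. The submitters' processing notes name FastQC, Trimmomatic, Bowtie2, Picard and the build TAIR10, with the peak caller not given in the sources used here. The deposited columns hold a whole-number score, a fold enrichment (ratio of ChIP over input at the summit), −log10 p-values, −log10 q-values, and, as another value, how far the summit lies from the peak start. Part of the libraries were prepared by another method, per the labels, which do not say which. The 7 input samples were not analysed here.

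Genes came from a RefSeq table of assembly TAIR10.1, in which all 38 identifiers were found. Summits lay in gene windows in 80.4% to 82.3% of cases in MYB3R1 lists, and in 49.1% to 50.6% with genes shifted by 5000 or 20000 bp. The table has no strand and no sequence. The planned restriction to gene starts and the motif counts were therefore not run, and no sequence is printed. Paralogs were grouped only where the table names the protein. List entries that the table does not name were dropped, leaving 8 of 10 ribosome assembly genes, 8 of 13 translation and signalling genes, and 4 of 14 further paralogs.

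No test was made: members and lists were chosen with earlier results of these data known, and fold enrichments are not comparable between lists. Counts of genes are set beside those of all genes. Counts of families, of summits inside or outside a gene and of summits nearer to a neighbour have no such background. Full values are given for paralogs that differ, members bound in MYB3R4, the 5 highest and 5 lowest of those in all 3 MYB3R1 libraries, and unbound members. The assignment was tested on simulated data. Python 3.11.15, pandas 2.3.3 and numpy 2.4.6 were used. Lists cut to 2717 and 7089 peaks and the organelle list were chosen after seeing the data.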

Additional observations from a re-analysis of the deposited data

How the results depend on the processing

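The count of ribosomal protein genes bound in at least 2 MYB3R1 libraries was 29, where 44.8% of all genes were. With a -log10 q of at least 5 it was 27 (40.6% of all genes). It was 29 with a window of 500 bp (37.5%) or of 2000 bp (54.4%), and 30 with peaks counted by any part (50.5%). With the nearest gene end only it was 20 (31.0%), with 7089 peaks per list 21 (29.8%), and in at least 1 library 36 (67.3%). It was 15 with a -log10 q of at least 10 (25.1% of all genes), 18 when binding in every library was required (26.9%), 6 with lists cut to the 2717 peaks of MYB3R4 replicate 2 (12.3%) and 0 with 227 peaks per list (at most 1.19% in a library). The counts with the 2 shorter lists are near the background. With a MYB3R1 library left out it was 18 to 29. Families with both paralogs so bound, 4, were 1 with a -log10 q of at least 10, 2 with the nearest gene end only, 0 with lists cut to 2717 peaks and 0 with 227, and 2 to 4 when single MYB3R1 libraries were dropped. The count for MYB3R4, 0, became 2 when 1 library sufficed, and was otherwise 0, as it was for MYB3R4mNES, under every alternative run. Of the other values, of single genes and libraries, 68 moved, 37 of these with 227 peaks per list, and 245 did not. A count was taken as moved when it changed by more than 1.5 times, and another value when it changed by more than 1 SD between replicates. Shorter lists leave fewer peaks to call by construction. With 1 MYB3R4mNES library left out, no count over 2 libraries could be had. Counting gene starts only, and motifs, was planned but not run, for want of strand and sequence. No paired analysis was possible because the results come from no test. Unknown depth limits every absence of a peak.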
